A study of Homo sapiens with 12 samples.

Results

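Cadherins and protocadherins are membrane proteins that join neighbouring cells through calcium-dependent repeats outside the cell. Their transcripts were examined by RNA sequencing (RNA-seq) in A375, a line long kept in culture that was derived from a human melanoma with mutant BRAF. Members were the protein-coding genes named CDH or PCDH plus a number, and the genes of the clustered families PCDHA, PCDHB and PCDHG (PCDHGA, PCDHGB and PCDHGC), with their C forms. The rule uses names only and found 87 genes among the 58347 in the count files: 23 cadherins (CDH), 11 non-clustered protocadherins (PCDH), 15 PCDHA, 16 PCDHB and 22 PCDHG genes. Cells received the dimethyl sulfoxide (DMSO) vehicle, tretinoin, vemurafenib or both drugs together (combination), with 3 replicates a group. Every group, the vehicle included, is listed at 5 µM and 8 h. Vemurafenib inhibits the mutant BRAF kinase and so the ERK pathway below it, and tretinoin is all-trans retinoic acid, the ligand of the retinoic acid receptors. All 12 libraries come from 1 cell line, and no label says whether the 3 replicates of a treatment were grown apart, so p-values measure the spread between these libraries, which may be technical.

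Classical cadherins bind cadherins of the same or a similar kind on the next cell and are tied to actin inside the cell by catenins. Melanocytes in the skin hold on to keratinocytes mainly through E-cadherin (CDH1), and melanoma cells often carry N-cadherin (CDH2) in its place. Most non-clustered protocadherins have 6 or 7 repeats and weaker adhesion. The clustered protocadherins lie in 3 adjoining gene arrays on chromosome 5, where each variable exon has a promoter of its own, and neurons use a chosen few of them as a surface identity code.

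The libraries held 13510235 to 21534377 counts, and tretinoin replicate 1 stood apart from the other tretinoin libraries (chi-square per degree of freedom over genes 20.06 and 22.96, against 2.62 to 9.17 for pairs without it). ERK output genes (DUSP6, SPRY4, SPRED1 and ETV5) fell in 4 of 4 cases with vemurafenib, with a median log2 fold change of -5.37. Retinoid response genes rose in 2 of 4 cases with tretinoin and in 4 of 4 with the combination. With vemurafenib alone 2 of these 4 rose (RARB by 2.8 and DHRS3 by 1.74 on the log2 scale) and 1 fell (CYP26B1, -0.42). RARB was not called with tretinoin alone (0.82, edgeR adjusted p = 0.1), so the combination count is not a measure of tretinoin by itself. Among 8 markers of the melanocytic lineage, MITF reached 658 counts in a library, S100B 206, S100A1 56, PMEL 25, MLANA 19 and DCT 18. SOX10 was at 0 in all 12 libraries and TYR at no more than 1 count. Fragments over exons of 2 genes were assigned to neither gene. Whether this affects SOX10 was not tested, so its 0 does not show absence. Summed markers of other cell types in CPM (counts scaled to a common library size with edgeR's TMM factors) ranged in DMSO and vemurafenib from 15.5 to 18.1 and from 48.3 to 50.6 for fibroblast genes, from 76.5 to 94.2 and from 89.9 to 94.2 for keratinocyte genes, and from 0.838 to 2.36 and from 2.44 to 3.55 for leukocyte genes. Their part in the results on cadherins was not tested.

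Of the 87 members, 60 had enough counts to be tested (at least 0.553 CPM in 3 libraries, and 15 counts in all), and 48 were above that floor in all 12 libraries. The other 27 held between 0 and 89 counts over the 12 libraries, with at most 16 in any library, and together made up 0.607% of the members' counts. All 15 PCDHA and 15 of 16 PCDHB genes were tested, against 9 of 23 CDH, 8 of 11 non-clustered PCDH and 13 of 22 PCDHG genes. For 5 of the tested members (CDH5, CDH23, PCDHB4, PCDHGA2 and PCDHGA4) at least 1 of the 4 groups lay wholly under the floor, so that they passed through the groups in which they were higher.

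To compare levels between genes, CPM were divided by the length of exon that no other gene shares, since fragments over shared exons were assigned to no gene. In DMSO, CDH2 led with 36.7 ± 3.4 CPM per kb (SD, n = 3), followed by PCDHGC3 with 29 ± 2.43 and PCDH1 with 12.8 ± 0.855. CDH13, the cadherin held to the membrane by a lipid anchor, had 6.83 ± 0.366 CPM per kb, and PCDHB6 had 6.45 ± 0.423 (SD, n = 3 each). The DMSO libraries of CDH2 lay above those of PCDHGC3 and these above those of PCDH1, whereas CDH13 and PCDHB6 overlapped and their order is not resolved. The melanocyte cadherin CDH1 had between 0 and 8 counts per library, P-cadherin (CDH3) between 2 and 11, and CDH11 between 1 and 8. These 3 were too low to be tested.

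**Figure D1:**
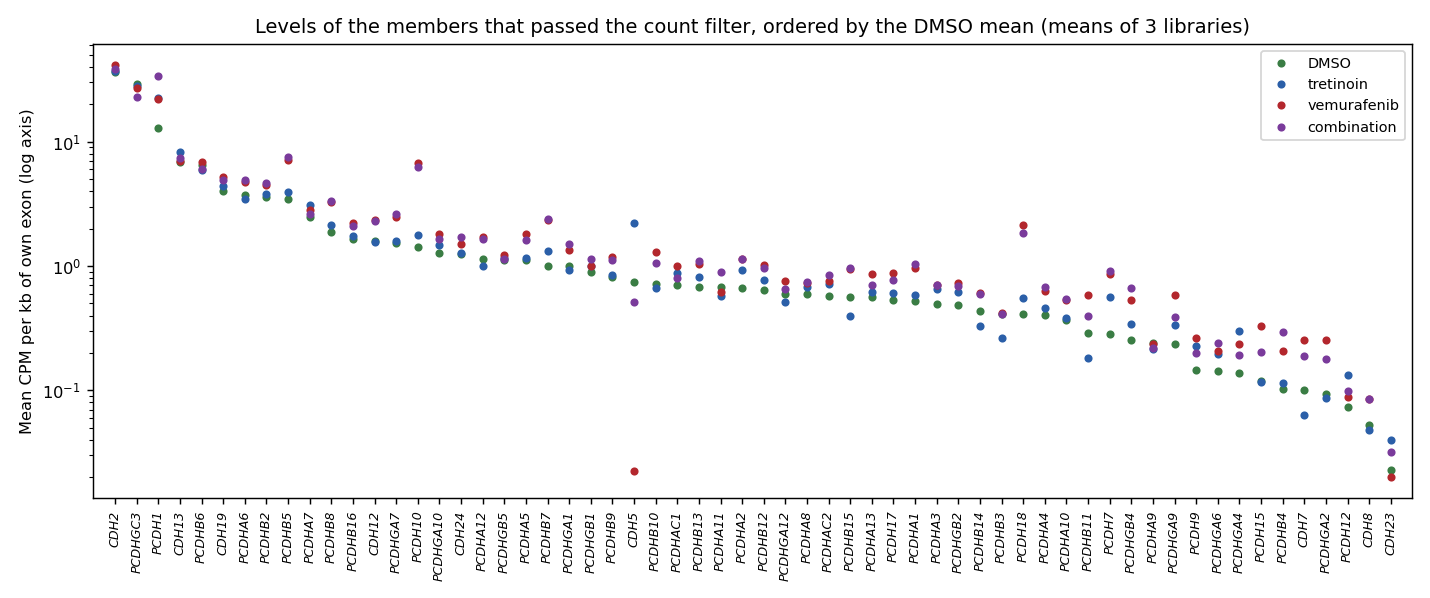
Mean CPM per kb of exon shared with no other gene (log axis, 3 libraries per point) for the 60 tested members, ordered by their DMSO level, with 1 colour per treatment. CDH2, PCDHGC3 and PCDH1 are the top 3 in DMSO, and CDH5 is the member whose vemurafenib point (0.0226) lies far below the other treatments.

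With vemurafenib, tested members rose far more often than they fell. Relative to DMSO, 32 of 60 rose and 1 fell (Benjamini-Hochberg adjusted p under 0.05 over all genes), against 26.4% of all 16740 tested genes that rose and 26.3% that fell (52.6% in either direction). The median log2 fold change was 0.57 over the tested members and 0.02 over all tested genes. With the combination 32 members rose and 2 fell relative to DMSO, where 27.1% of all tested genes rose and 26.5% fell (53.6% in either direction). Of the 48 members above the count floor in all 12 libraries, 28 rose and 0 fell with vemurafenib. Among these 48, 29 rose and 1 fell with the combination. Both comparisons use the same DMSO libraries, and 29 of the 60 tested members rose in both. In every fit that left out a library, 24 of the 32 rises with vemurafenib and 21 of the 32 with the combination were still called. With tretinoin alone 4 members rose (CDH5, PCDH1, PCDH7 and PCDH9) and 0 fell, where 3.48% and 2.2% of all tested genes did (5.68% in either direction). At an unadjusted p under 0.05, 9 members rose and 0 fell with tretinoin, and DESeq2, another count model, likewise called 4 higher and 0 lower. Scaling by total counts instead of TMM moved the median of all genes to 0.214 with vemurafenib and its split to 6575 higher and 2628 lower genes (4411 and 4400 with TMM), and to 0.187, 6242 and 2916 with the combination (4537 and 4440 with TMM). Under that scaling 45 members rose and 1 fell with vemurafenib (median 0.76) and 39 rose and 0 fell with the combination (median 0.68).

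CDH5 (ENSG00000179776.17; chr16:66366622-66404786, plus strand, GRCh38) encodes VE-cadherin, the adhesion molecule of endothelial junctions, and had the largest change of any tested member with vemurafenib. It had 4.19, 4.32 and 5.17 CPM in DMSO, 15.2, 14.1 and 11 in tretinoin, 0.208, 0.144 and 0.0601 in vemurafenib, and 2.48, 3.62 and 3.35 in the combination. The 4 groups did not overlap: tretinoin was the highest, DMSO and the combination came next, and vemurafenib was close to no expression, with raw counts of 4, 3 and 1. Summed over replicates, CDH5 was 32.7-fold lower with vemurafenib than with DMSO (95% exact interval 16.3 to 76.6, for counting error only), with a log2 fold change of -4.96 (SE 0.34) and an adjusted p of 2e-09. Tretinoin raised it by 1.54 (SE 0.17, adjusted p = 1.5e-05) on the log2 scale.

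Adding tretinoin to vemurafenib brought CDH5 to 22.6 times its vemurafenib level (95% exact interval 11.2 to 53.1), a log2 fold change of 4.43 (SE 0.36, adjusted p = 3.5e-07). The combination remained below tretinoin alone by a log2 fold change of -2.07 (SE 0.17, adjusted p = 1.8e-08). Relative to DMSO it was lower by -0.53 on the log2 scale (SE 0.19, adjusted p = 0.025), and this last call depended on the libraries and the scaling: it was lost without DMSO replicate 3 (-0.43), without combination replicate 1 (-0.4) and under scaling by total counts (-0.37). On the log2 scale the tretinoin effect was larger with vemurafenib than without it, with an interaction of 2.88 (SE 0.45, adjusted p = 0.0055) that was called in 12 of 12 fits that left out a library. In mean CPM the step was smaller with vemurafenib (0.137 to 3.15) than without it (4.56 to 13.4). Only 0.382% of all tested genes had a called positive interaction. Endothelial markers were measured beside it: PECAM1 had log2 fold changes of 0.81 with tretinoin (adjusted p = 0.2) and -0.83 with vemurafenib (adjusted p = 0.12), KDR fell with vemurafenib by -2.11 (SE 0.25) and was not called between the combination and vemurafenib (-0.16 relative to vemurafenib, SE 0.31, adjusted p = 0.91), and VWF rose with vemurafenib by 2.13 (SE 0.49). Summed over these 3 genes, the level was 3.8 to 5.81 CPM in DMSO, 7.07 to 8.14 in tretinoin, 3.18 to 3.79 in vemurafenib and 2.93 to 3.53 in the combination, and their part in the CDH5 result was not tested.

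**Figure D2:**
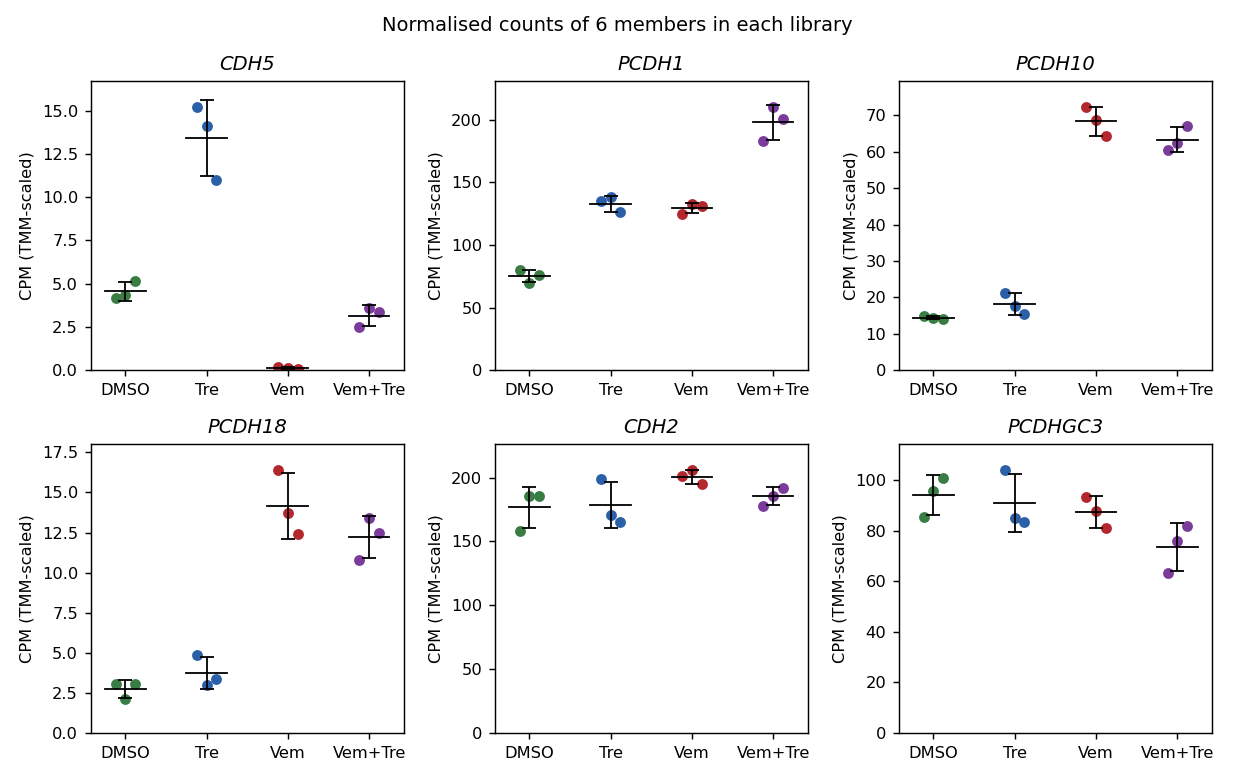
TMM-scaled CPM of 6 members in each library, with the mean (line) and SD (bar) of the 3 libraries per treatment (Tre, tretinoin; Vem, vemurafenib; Vem+Tre, combination), each axis from 0. CDH5 is near 0 in vemurafenib and between 2.48 and 3.62 CPM in the combination, PCDH10 and PCDH18 are high in both vemurafenib groups, and PCDH1 is highest in the combination.

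The other cadherins changed less. CDH2, N-cadherin, had 158, 186 and 186 CPM in DMSO, 199, 171 and 165 in tretinoin, 201, 206 and 195 in vemurafenib, and 178, 186 and 192 in the combination. The vemurafenib libraries were above those of DMSO, with a log2 fold change of 0.18 (SE 0.08, adjusted p = 0.068) that missed the threshold. It passed when only the DMSO and vemurafenib libraries were fitted (0.19) and under scaling by total counts (0.38). CDH13 was called in 0 of the 6 comparisons, with log2 fold changes of 0.27 (SE 0.1, adjusted p = 0.12) with tretinoin and 0.03 (SE 0.1) with vemurafenib. Relative to DMSO, log2 fold changes of CDH2 and CDH13 were at most 0.27 under each treatment.

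The type II cadherins CDH7, CDH12 and CDH19, relatives of CDH5 best known from neurons and the neural crest, rose with vemurafenib. CDH19, a marker of Schwann cell precursors, had 26.3, 30.2 and 26.9 CPM in DMSO and 35.7, 36.1 and 34.9 in vemurafenib, and the groups did not overlap (log2 fold change 0.36, SE 0.08, adjusted p = 0.00076). CDH12 had 8.76, 10.9 and 8.71 CPM in DMSO and 14.0, 14.3 and 13.3 in vemurafenib (0.56, SE 0.12, adjusted p = 0.0008). CDH7 had 0.644, 2.03 and 1.69 CPM in DMSO and 3.95, 4.57 and 2.64 in vemurafenib (1.36, SE 0.29, adjusted p = 0.00079). These 3 genes were also higher in the combination than in DMSO, by 0.28, 0.52 and 0.92, although CDH7 lost this call without DMSO replicate 1 (0.57). CDH24 was called higher in the combination (0.45, SE 0.13, adjusted p = 0.006), and its vemurafenib value of 0.26 (SE 0.13, adjusted p = 0.092) was called under scaling by total counts alone (0.46). The combination and vemurafenib were not shown to differ for CDH24 (0.18, SE 0.12, adjusted p = 0.57). CDH8, at 0.709 ± 0.0557 CPM in DMSO (SD, n = 3), was called in the combination relative to tretinoin (0.87, SE 0.33), and in no other comparison; this held in 2 of 6 fits that left out a library (lost without tretinoin replicate 2, 0.67, tretinoin replicate 3, 0.89, combination replicate 2, 0.73, or combination replicate 3, 0.88) and was lost in DESeq2.

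Of all tested genes, 26.4% rose and 26.3% fell with vemurafenib, and 27.1% and 26.5% with the combination. Among the non-clustered protocadherins, 7 of 8 tested rose with vemurafenib and 0 fell, with a median log2 fold change of 1.14, and 7 of 8 rose with the combination. The same 7 genes were called both times: PCDH1, PCDH7, PCDH9, PCDH10, PCDH15, PCDH17 and PCDH18. PCDH12, an endothelial protocadherin at 0.494 ± 0.196 CPM in DMSO (SD, n = 3), was called in none of the 6 comparisons. Summed over the 11 genes, the level was 107 ± 7.49 CPM in DMSO, 176 ± 9.87 in tretinoin, 244 ± 6.43 in vemurafenib and 301 ± 19.0 in the combination (SD, n = 3 each), with no overlap between the groups. PCDH1 held most of this sum, 70.4% of it in DMSO, 53.3% in vemurafenib and 65.7% in the combination. Between vemurafenib and the combination the sum followed PCDH1, since the median log2 fold change of the 8 tested genes in that comparison was -0.16, with 3 of 8 positive.

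PCDH10 (ENSG00000138650.8; chr4:133149315-133208606, plus strand) and PCDH18 (ENSG00000189184.11; chr4:137518918-137532494, minus strand) belong to the delta-2 protocadherins, which regulate actin through the WAVE complex. PCDH10 had 14.9, 14.4 and 14.1 CPM in DMSO, 21.3, 17.6 and 15.4 in tretinoin, 72.2, 68.6 and 64.3 in vemurafenib, and 60.5, 62.3 and 67.1 in the combination. Both vemurafenib groups were more than 4 times above DMSO, with log2 fold changes of 2.24 (SE 0.1, adjusted p = 4.9e-12) and 2.13 (SE 0.1, adjusted p = 8.9e-12). PCDH18 had 3.03, 2.09 and 3.06 CPM in DMSO and 16.4, 13.7 and 12.4 in vemurafenib, the largest rise of any tested member by fold (5.14-fold; log2 2.36, SE 0.18, adjusted p = 7.4e-09). In the combination it had 10.8, 13.4 and 12.5 CPM, and tretinoin added to vemurafenib gave no called difference for PCDH18 (-0.21, SE 0.14) or PCDH10 (-0.11, SE 0.09). With tretinoin alone the values were 0.41 (SE 0.22, adjusted p = 0.27) for PCDH18 and 0.32 (SE 0.11, adjusted p = 0.09) for PCDH10, and the latter was called only without tretinoin replicate 3 (0.42).

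PCDH1 (ENSG00000156453.13; chr5:141853111-141879246, minus strand), a delta-1 protocadherin of epithelial and other surfaces, rose with each drug and rose further with both. It had 80.0, 70.0 and 76.2 CPM in DMSO, 135, 138 and 126 in tretinoin, 125, 133 and 131 in vemurafenib, and 183, 210 and 201 in the combination. The 2 single-drug groups overlapped, while DMSO lay below and the combination above both. The log2 fold changes from DMSO were 0.82 with tretinoin (SE 0.07, adjusted p = 2.6e-06), 0.78 with vemurafenib (SE 0.07, adjusted p = 9e-08) and 1.39 with the combination (SE 0.07, adjusted p = 5e-11). The combination was above vemurafenib by 0.61 and above tretinoin by 0.58 (SE 0.07 for each). The interaction was -0.21 (SE 0.1, edgeR adjusted p = 0.33, unadjusted p = 0.057), so no departure from the sum of the single log2 effects was called.

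PCDH7, also of the delta-1 group, had 3.48, 2.77 and 4.17 CPM in DMSO, 7.99, 5.99 and 6.68 in tretinoin, 12.3, 10.7 and 9.01 in vemurafenib, and 10.0, 12.3 and 11.1 in the combination. It rose by 0.96 with tretinoin (SE 0.18, adjusted p = 0.0034) and by 1.61 with vemurafenib (SE 0.17, adjusted p = 3.6e-07) on the log2 scale, but the combination did not stand above vemurafenib (0.06, SE 0.14, adjusted p = 0.92). The interaction of -0.9 (SE 0.23, adjusted p = 0.078) missed the threshold here and passed it in DESeq2. PCDH9 showed a similar shape: it had 5.48, 3.65 and 4.33 CPM in DMSO, 7.04, 6.97 and 6.85 in tretinoin, 7.95, 8.08 and 8.17 in vemurafenib, and 5.06, 5.81 and 7.56 in the combination. Each single drug lay above DMSO, while the combination overlapped DMSO, and the interaction of -1.02 (SE 0.22, adjusted p = 0.04) was called, as it was for 0.424% of all tested genes with a negative sign. The call held in 3 of 12 fits that left out a library, with values from -1.2 to -0.9, and the rise of PCDH9 with tretinoin (0.63, SE 0.17, adjusted p = 0.033) was lost without DMSO replicate 2 (0.51), DMSO replicate 3 (0.6) or tretinoin replicate 2 (0.63). Its rise in the combination (0.46) was likewise lost without DMSO replicate 2 (0.34), DMSO replicate 3 (0.42) or combination replicate 3 (0.27).

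PCDH15, the partner of CDH23 in the tip links of inner ear hair cells, had 2.13, 1.08 and 2.32 CPM in DMSO, 5.4, 5.15 and 4.69 in vemurafenib, and 3.3, 3.3 and 2.9 in the combination. Vemurafenib raised it by 1.44 (SE 0.21, adjusted p = 2.1e-05), and the combination was below vemurafenib by a log2 fold change of -0.69 (SE 0.19, adjusted p = 0.048). That last call held in 0 of 6 fits that left out a library, with values from -0.74 to -0.63. PCDH17 rose by 0.74 (SE 0.15) with vemurafenib and by 0.54 (SE 0.15) with the combination. CDH23 itself, at 0.106 to 0.988 CPM over the DMSO and tretinoin libraries, was called in no comparison.

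Adding tretinoin to vemurafenib thus changed few members: 2 rose (CDH5 and PCDH1) and 1 fell (PCDH15), where 2.27% and 2.2% of all tested genes did (4.47% in either direction), and 0 of 43 tested clustered protocadherins were called by edgeR or DESeq2 (1 at an unadjusted p under 0.05). Relative to tretinoin, the combination raised 27 members and lowered 2, against 24.1% and 25% of all tested genes (49.1% in either direction). The interaction was called in 2 members, against 0.806% of all tested genes. It was positive in 16 of 60 tested members (median -0.15, against -0.01 for all tested genes) and in 0 of the 8 non-clustered protocadherins, with a median of -0.61. Under scaling by total counts the medians were -0.26 for the members and -0.114 for all tested genes. All members were measured in the same 12 libraries, so their signs are not independent.

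**Figure D3:**
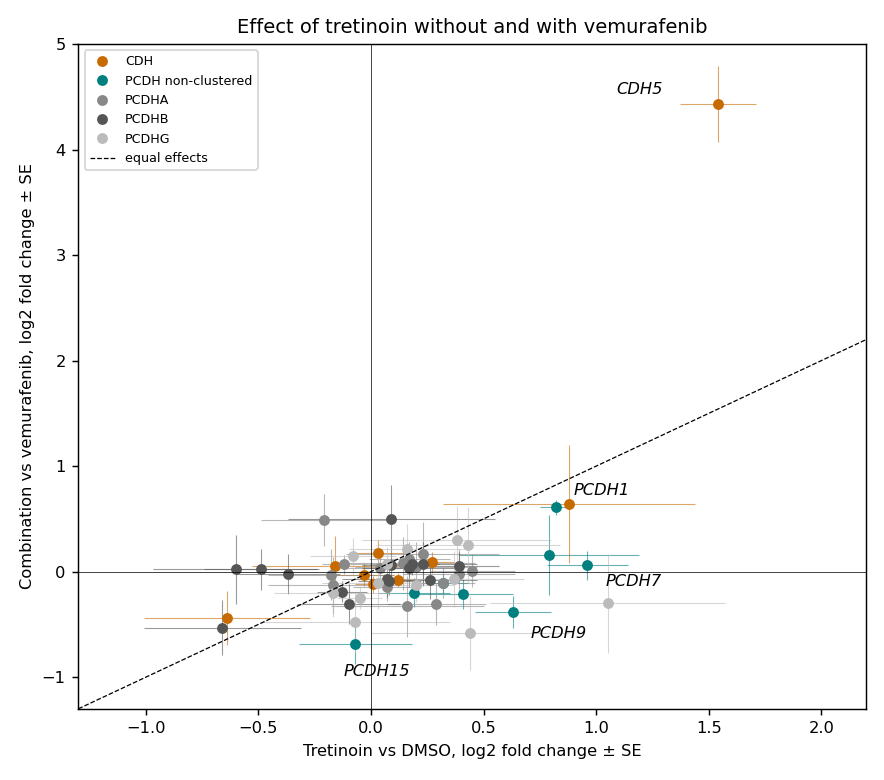
Log2 fold change (± SE) of tretinoin relative to DMSO on the horizontal axis and of the combination relative to vemurafenib on the vertical axis, for the 60 tested members coloured by family, with the line of equal effects. CDH5 lies far above the line (4.43 against 1.54), PCDH1 lies near it, and PCDH7, PCDH9 and PCDH15 lie below it.

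Some clustered protocadherins of each of the 3 arrays rose with vemurafenib. Of 43 tested, 22 rose and 0 fell with vemurafenib (median log2 fold change 0.54), and 21 rose and 1 fell with the combination (median 0.52). Of all tested genes, 26.4% rose and 26.3% fell with vemurafenib, and 27.1% and 26.5% with the combination. The 51.2% of clustered genes called with vemurafenib was thus near the 52.6% of all genes, but every call was a rise. With tretinoin alone 0 clustered genes were called by edgeR or DESeq2 (median 0.09), where edgeR called 5.68% of all tested genes. At an unadjusted p under 0.05 there were 3. By array, vemurafenib raised 6 of 15 PCDHA, 10 of 15 PCDHB and 6 of 13 PCDHG genes. Above the count floor in all 12 libraries were 35 clustered genes, of which vemurafenib raised 18. By array these were 6 of 15 PCDHA, 9 of 12 PCDHB and 3 of 8 PCDHG genes. Summed over the array, PCDHB counts were 76.3 ± 3.88 CPM in DMSO, 78.1 ± 1.37 in tretinoin, 112 ± 5.65 in vemurafenib and 110 ± 9.11 in the combination (SD, n = 3 each). PCDHA sums were 49.7 ± 2.04, 53.5 ± 2.27, 67.0 ± 2.19 and 67.2 ± 4.76 CPM in the same order. In both arrays the 6 libraries with vemurafenib lay above the 6 without it. The PCDHG sum overlapped between DMSO (121 ± 9.37 CPM) and vemurafenib (127 ± 8.04; SD, n = 3 each).

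**Figure D4:**
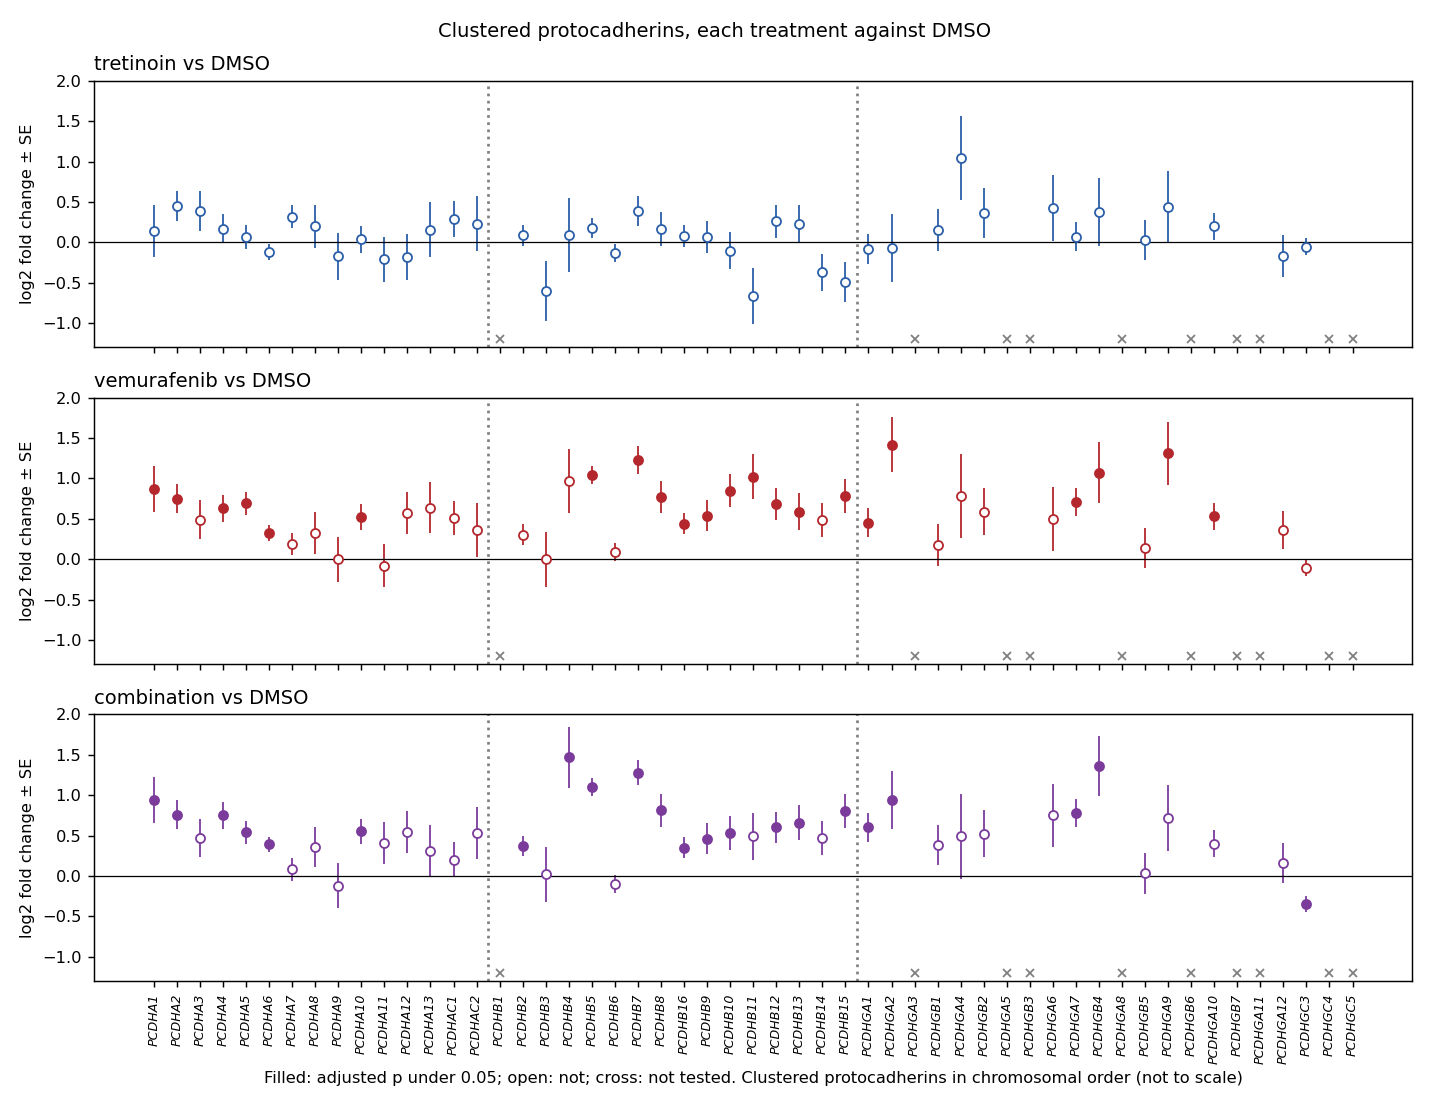
Log2 fold change (± SE) from DMSO of the clustered protocadherins in their order along chromosome 5, for tretinoin (top), vemurafenib (middle) and the combination (bottom). Filled points passed the adjusted p of 0.05, open points did not, crosses were not tested, and dotted lines part the PCDHA, PCDHB and PCDHG arrays. No point is filled with tretinoin, and with vemurafenib 22 are filled, all above 0. Of all tested genes, 5.68% were called with tretinoin and 52.6% with vemurafenib.

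Among PCDHA genes, PCDHA6 was the best expressed in DMSO by length, with 3.76 ± 0.1 CPM per kb (SD, n = 3). It had 12.6, 12.4 and 11.9 CPM in DMSO and 14.0, 16.1 and 16.0 in vemurafenib, a small rise without overlap (log2 fold change 0.32, SE 0.1, adjusted p = 0.0088). PCDHA1, PCDHA2, PCDHA4, PCDHA5 and PCDHA10 rose with vemurafenib by between 0.52 and 0.87, of which PCDHA1 lost its call without DMSO replicate 2 (0.63), vemurafenib replicate 1 (0.76) or vemurafenib replicate 2 (0.8), and PCDHA10 without vemurafenib replicate 1 (0.46). PCDHA12 was called in the combination relative to tretinoin alone of all comparisons (0.72, SE 0.26), and this held in 1 of 6 fits that left out a library. The C forms, which in neurons are expressed from both chromosome copies and without random choice, had 0.51 (SE 0.21, adjusted p = 0.051) for PCDHAC1 and 0.36 (SE 0.33, adjusted p = 0.37) for PCDHAC2.

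Among PCDHB genes, which are single-exon genes, the response differed between neighbours. PCDHB5 (chr5:141135218-141138625, plus strand, with 2907 of its 3408 exon bases shared with no other gene) had 9.92, 9.73 and 10.6 CPM in DMSO, 10.9, 12.4 and 11 in tretinoin, 21.3, 22.5 and 18.3 in vemurafenib, and 19.6, 24.1 and 21.4 in the combination. It thus about doubled in both groups with vemurafenib, with log2 fold changes of 1.04 (SE 0.11, adjusted p = 3.8e-07) and 1.1 (SE 0.11, adjusted p = 1.6e-07). PCDHB6 (chr5:141150022-141153287), the next gene of the array, had 20.2, 22.2 and 19.6 CPM in DMSO and 21.1, 23.8 and 21.0 in vemurafenib, and the groups overlapped (0.09, SE 0.11, adjusted p = 0.5). PCDHB7 (chr5:141172619-141176383), the gene after it, had 3.54, 3.78 and 3.17 CPM in DMSO and 9.71, 7.26 and 7.51 in vemurafenib (1.23, SE 0.17, adjusted p = 7.4e-06).

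As a result PCDHB6 made up 27.1% ± 1.34 (SD, n = 3) of the PCDHB counts in DMSO, 24.1% ± 1.98 in tretinoin, 19.6% ± 1.25 in vemurafenib and 17.5% ± 1.01 in the combination, whereas PCDHB5 made up 13.2% ± 0.936, 14.6% ± 1.09, 18.5% ± 1.13 and 19.8% ± 0.475 in that order. These shares do not depend on how libraries were scaled. The DMSO and vemurafenib libraries did not overlap for either gene, and 3 libraries against 3 cannot reach a two-sided exact permutation p below 0.1. The other PCDHB genes that rose with vemurafenib (PCDHB8, PCDHB9, PCDHB10, PCDHB11, PCDHB12, PCDHB13, PCDHB15 and PCDHB16) had log2 fold changes from 0.44 to 1.02. Of these, PCDHB9, PCDHB13 and PCDHB16 lost their call in at least 2 of 6 fits that left out a library, with values from 0.34 to 0.81. PCDHB4 was called in the combination (1.47, SE 0.38) and had 0.97 with vemurafenib (adjusted p = 0.05 after rounding, not called), which was called without DMSO replicate 3 (1.4), under total counts (1.16) and with DESeq2 size factors (0.97). PCDHB2 was called in the combination (0.37, SE 0.13), but not without DMSO replicate 1 (0.26), combination replicate 1 (0.32) or combination replicate 2 (0.36). Its vemurafenib value of 0.3 was called when only the groups compared were fitted (0.31), under total counts (0.5) and without DMSO replicate 2 (0.38). The combination and vemurafenib were not shown to differ for PCDHB2 (adjusted p = 0.91) or PCDHB4 (adjusted p = 0.56). PCDHB14 had 2.26, 2.16 and 1.64 CPM in DMSO, 1.47, 1.63 and 1.53 in tretinoin, 2.91, 2.5 and 3.06 in vemurafenib, and 3.3, 2.32 and 2.76 in the combination. It was called in the combination relative to tretinoin (0.84, SE 0.22, adjusted p = 0.0035), in 6 of 6 fits that left out a library, and its value with vemurafenib was 0.49 (SE 0.21, adjusted p = 0.057).

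The promoters of clustered protocadherins are known for a conserved element with the core CGCT. In the RefSeq promoters (GRCh38.p14, 250 bases before to 50 after the start), 68 of the 87 members had an entry, and CGCT was found on either strand in 66 of them, but also in 69.4% of 27305 promoters of all genes. A longer form that contains it, TGGCGCT, was chosen after the sequences were seen and searched on either strand. It was found in 13 of 14 PCDHB promoters, 3 of 20 PCDHG promoters, 0 of 13 PCDHA promoters and 4.11% of all promoters. Of the 13 PCDHB genes that hold it, 9 rose with vemurafenib, beside 10 of all 15 tested PCDHB genes and 26.4% of all tested genes. Since 13 of 14 PCDHB promoters hold it, this count cannot separate the element from the array. In 12 of the 13 it lay before the start, at a distance of 7 to 75 bases. The stretches below, with TGGCGCT in capitals and read 5′ to 3′ on the plus strand, set 3 PCDHB genes that rose with vemurafenib (PCDHB5, PCDHB7 and PCDHB15, by 1.04, 1.23 and 0.78) beside PCDHB2 and PCDHB3, which were not called (0.3 and 0), and PCDHGC3:
PCDHB5 (chr5:141135172-141135205): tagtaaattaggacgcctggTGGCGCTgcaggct
PCDHB7 (chr5:141172559-141172605): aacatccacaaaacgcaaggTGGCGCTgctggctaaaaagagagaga
PCDHB15 (chr5:141245307-141245353): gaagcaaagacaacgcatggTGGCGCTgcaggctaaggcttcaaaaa
PCDHB2 (chr5:141094537-141094583): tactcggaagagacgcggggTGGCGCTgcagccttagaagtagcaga
PCDHB3 (chr5:141100386-141100432): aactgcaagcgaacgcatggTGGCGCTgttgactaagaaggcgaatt
PCDHGC3 (chr5:141475797-141475843): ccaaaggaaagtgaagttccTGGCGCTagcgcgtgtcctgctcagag
The element was thus present in called and uncalled genes alike. The retinoic acid response element of the direct repeat kind, with a spacer of 5 bases and read on either strand, was found in 0 of the 68 promoters, against 0.747% of all promoters, and the AP-1 site TGANTCA, also on either strand, in 1 of 68, against 7.76%. CDH5, PCDH10 and PCDHB6 had no promoter entry.

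Among PCDHG genes, PCDHGC3 (ENSG00000240184.6; chr5:141475947-141512979, plus strand) stood apart. It is the C form that many cell types outside the nervous system express, and it held most counts of its array. It had 85.5, 95.8 and 101 CPM in DMSO, 104, 85.1 and 83.4 in tretinoin, 93.5, 87.9 and 80.9 in vemurafenib, and 63.3, 75.8 and 82.0 in the combination. The combination libraries lay below those of DMSO (log2 fold change -0.35, SE 0.1, adjusted p = 0.0073), a call that held in 6 of 6 fits that left out a library (-0.44 to -0.26) and was lost under scaling by total counts (-0.19). It was also below tretinoin (-0.3, SE 0.1, adjusted p = 0.022), and this was lost without tretinoin replicate 1 (-0.19) or combination replicate 1 (-0.2). The vemurafenib libraries overlapped DMSO (-0.11, SE 0.1, adjusted p = 0.39).

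Relative to DMSO, PCDHGC3 was thus called lower with the combination only. The combination and vemurafenib were not shown to differ for it, since 0 of the 13 tested PCDHG genes were called between them. The rest of the PCDHG array rose as a sum in both groups with vemurafenib. Without PCDHGC3 its sum was 27.2 ± 2.24 CPM in DMSO, 30.0 ± 2.62 in tretinoin, 39.4 ± 2.99 in vemurafenib and 39.4 ± 4.04 in the combination (SD, n = 3 each). PCDHGC3 therefore made up 77.3%, 76.4% and 78.9% of PCDHG counts in DMSO, 76.3%, 73.4% and 75.5% in tretinoin, 70.6%, 67.3% and 68.8% in vemurafenib, and 64.5%, 63.9% and 67.0% in the combination. Every library with vemurafenib lay below every library without it. The single genes were low: PCDHGA2 had 0.387, 0.405 and 0.475 CPM in DMSO and 1.3, 1.06 and 1.08 in vemurafenib (1.42, SE 0.34, adjusted p = 0.0022), and passed the filter only through the groups with vemurafenib. PCDHGA7, with 4.64, 5.34 and 4.91 CPM in DMSO, rose by 0.71 with vemurafenib and 0.78 with the combination (SE 0.17 for each). PCDHGA1, PCDHGA9, PCDHGA10 and PCDHGB4 also rose with vemurafenib, by 0.45, 1.31, 0.53 and 1.07, but PCDHGA1 and PCDHGB4 kept their call in 2 of 6 fits that left out a library (0.26 to 0.57 and 0.85 to 1.3).

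**Figure D5:**
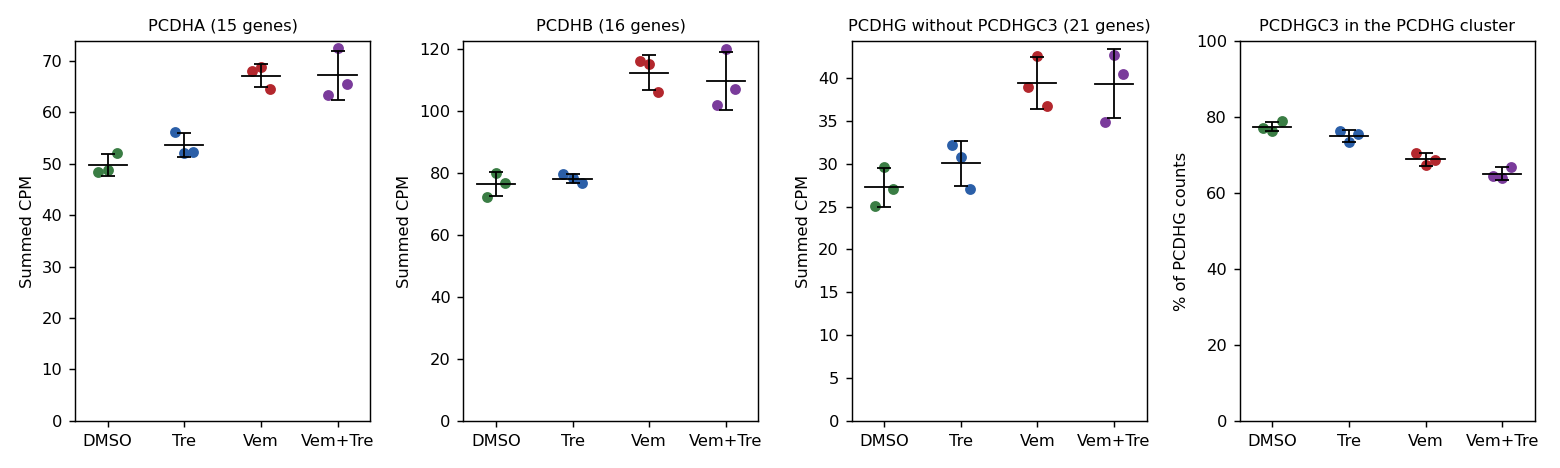
Summed TMM-scaled CPM of the PCDHA, PCDHB and PCDHG arrays (the last without PCDHGC3), and the percentage of PCDHG counts that fall on PCDHGC3, in each library with the mean (line) and SD (bar) of 3. The sums rise and the PCDHGC3 share falls from 77.5% in DMSO to 68.9% in vemurafenib and 65.1% in the combination.

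Counts of some members can be shared with near-identical copies. The exons of 8 tested members held a run of 150 bases or longer that matched another gene at 98% or above: CDH7, CDH12, PCDHB2, PCDHB7, PCDHB10, PCDHB11, PCDHB13 and PCDHGA6. Their counts are less certain where reads fell there. The constant exons that the PCDHA genes share, and those that the PCDHG genes share, gave no counts, so the levels above rest on the variable exons. Strand was ignored in counting, so antisense transcripts cannot be told apart from a member's own.

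The lists of cadherin partners hold 7 to 16 tested genes each, and their counts stand beside the 26.4% of all tested genes that rose and the 26.3% that fell with vemurafenib. Of the catenins and plaque genes, vemurafenib raised 2 of the 9 tested and lowered 3, a share close to that of all genes, and the combination raised 1 and lowered 6 (27.1% and 26.5% of all genes). CTNNB1 (beta-catenin), which binds classical cadherin tails, fell by a log2 fold change of -0.35 (SE 0.08, adjusted p = 0.00097) with vemurafenib, and CTNND1 (p120-catenin), which holds cadherins at the membrane, rose by 0.28 (SE 0.08, adjusted p = 0.0058). CTNNA1 (alpha-catenin, the link to actin) had -0.14 (SE 0.06, adjusted p = 0.085) with vemurafenib and fell by -0.25 (SE 0.06) in the combination. Of the other catenin and plaque genes, ARVCF rose with vemurafenib (0.69), CTNNAL1 (-0.43) and PKP4 (-0.28) fell, and JUP (0.31), VCL (-0.21) and AFDN (-0.23) were not called. Desmosomal genes rose in 5 of 7 cases and fell in 0, among them the desmosomal cadherins DSC2 (2.83, SE 0.24) and DSC3 (1.51, SE 0.12), and DSG2 had a called interaction of -0.58 (SE 0.11, adjusted p = 0.012). The other cadherin superfamily genes rose in 5 of 13 and fell in 1 of 13 cases, led by FAT4 (1.31, SE 0.2), a giant cadherin of the Hippo pathway, and CELSR2 (1.12, SE 0.12), a planar polarity cadherin. DCHS2, with at most 20 counts in a library, was called in the combination relative to tretinoin (1.74, SE 0.48). Its value with vemurafenib was 0.94 (SE 0.42, adjusted p = 0.068).

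Of the transcription factors that repress classical cadherin genes, 3 of 8 rose and 4 of 8 fell with vemurafenib, beside 26.4% and 26.3% of all tested genes. SNAI2 (3.54, SE 0.2), TCF4 (1.5, SE 0.1) and ZEB2 (1.24, SE 0.1) rose, and SNAI1 fell by a log2 fold change of -1.08 (SE 0.1), while ZEB1 fell by -0.97 (SE 0.1) with vemurafenib and by -1.15 (SE 0.1) with the combination. Genes of protocadherin promoter choice and signalling rose in 4 and fell in 4 of 16 cases with vemurafenib, which is near the share of all tested genes. CTCF, which binds the promoters of the clustered genes, had -0.13 (SE 0.07, adjusted p = 0.12) and the cohesin subunit RAD21 had 0 (SE 0.06, adjusted p = 0.97), while the kinase PTK2B, which clustered protocadherins inhibit, rose by 1.15 (SE 0.21, adjusted p = 0.00019). Among proteases that cut or mature cadherins, 4 of 9 rose and 1 fell with vemurafenib, the latter being FURIN, which removes the cadherin propeptide, with a log2 fold change of -0.88 (SE 0.07) and of -1.07 (SE 0.07) in the combination. PCSK5 rose with vemurafenib (0.82, SE 0.18) and with the combination relative to DMSO (0.99, SE 0.18) and to tretinoin (1.08, SE 0.18). In none of these 6 lists did tretinoin alone lower a gene. Of the 13 other cadherin superfamily genes it raised FAT3 (0.57, SE 0.16, edgeR adjusted p = 0.048). Of the 8 repressors it raised SNAI1 (0.34, SE 0.09, adjusted p = 0.04) and SNAI2 (0.93, SE 0.26, adjusted p = 0.045). SNAI2 had 0.724 ± 0.188 CPM in DMSO (SD, n = 3). These calls lay close to the threshold, and 3.48% of all tested genes rose and 2.2% fell with tretinoin.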

How the data were processed

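The authors enriched polyadenylated RNA, aligned reads with STAR 2.5.3a to GRCh38.p10 and deposited raw counts of fragments per GENCODE 27 gene, in union mode with strand ignored, for 12 libraries. The aligner and build are from the submitters' processing notes. Fragments over exons of 2 genes were assigned to neither. Symbols and exon lengths came from GENCODE 29 (58039 of 58347 identifiers matched).

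Counts were filtered (filterByExpr by group, 16740 genes), scaled by TMM (factors 0.9012 to 1.0736) and fitted in edgeR 4.0.16 (R 4.3.3) with a quasi-likelihood model, 1 term per treatment, over all 12 libraries. The common dispersion was 0.0065. P-values were Benjamini-Hochberg adjusted over all tested genes within each of 6 comparisons, with a threshold of 0.05. The interaction is the log2 effect of tretinoin in vemurafenib-treated cells minus that in cells without vemurafenib. CPM use TMM-scaled totals, and intervals are exact binomial. Depth limits genes with few counts: SEs ranged from 0.07 to 0.63 on the log2 scale for vemurafenib relative to DMSO. Simulated counts with 200 known changes were used to check the scripts.

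Members, partner lists and markers were chosen with earlier results of these data known. Named were members called in any comparison, the 5 highest in DMSO per kb, and CDH1, CDH2, CDH3, CDH11, CDH13 and CDH19, and of partners those called with an absolute log2 fold change of at least 1, or catenins; other partners are singled out after their values were seen. Alternatives were DESeq2 1.42.0 (the authors' tool), its size factors, total counts, no filter, only the groups compared, a replicate block, and each library left out.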

Additional observations from a re-analysis of the deposited data

Results flagged for a closer look

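Both members with a called interaction are listed here, since the effect of tretinoin on them differed between cells with and without vemurafenib by a test of that difference. For CDH5 the tretinoin effect was 1.54 without and 4.43 with vemurafenib on the log2 scale, an interaction of 2.88 (SE 0.45, edgeR adjusted p = 0.0055), and it rose with tretinoin in both settings. The vemurafenib libraries held 4, 3 and 1 counts of CDH5, so the size of this difference rests on 8 counts, and the interval of the combination over vemurafenib ran from 11.2 to 53.1-fold. For PCDH9 the tretinoin effect was 0.63 without vemurafenib and -0.38 with it (adjusted p = 0.21 for the latter), an interaction of -1.02 (SE 0.22, adjusted p = 0.04). All 3 tretinoin libraries lay above the 3 DMSO libraries, and all 3 combination libraries below the 3 vemurafenib libraries.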

How the results depend on the processing

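The counts of members called were within 1.5 times the reported count under every alternative for 5 of 6 comparisons. Leaving out single libraries gave 3 to 5 called members for tretinoin, 27 to 32 for vemurafenib and 28 to 33 for the combination relative to DMSO, 2 for the combination relative to vemurafenib, 22 to 28 relative to tretinoin, and 1 to 2 for the interaction, where PCDH9 was the call lost. With the replicate number as a block the interaction was called in 1 member rather than 2 (PCDH9 at -1.03), and PCDH9 with tretinoin (0.64), PCDHB13 with vemurafenib (0.6), PCDHB9 in the combination (0.46) and PCDH15 in the combination relative to vemurafenib (-0.68) were lost; no other call of a named member changed under the block. Libraries with the same number did not deviate together (correlations from -0.251 to 0.184, mean -0.054). With 3 libraries a group this cannot exclude that the numbers mark matched sets, and no label says whether they do. No value turned its direction when a call was involved. Of the 32 members that rose with vemurafenib, 24 kept the call without any single library, 31 in DESeq2, 30 without the low-count filter and 32 under total counts. For the 32 that rose with the combination relative to DMSO, these numbers were 21, 28, 28 and 32. For the 27 that rose with the combination relative to tretinoin, they were 18, 25, 24 and 27. Total counts moved the median of all genes to 0.214 with vemurafenib and 0.187 with the combination, and 0 of the 2 members lower in the combination than in DMSO stayed called. Where a call was lost, the cause was not tested. The 27 untested members were too low for a reliable test.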

Other observations

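A few members below the low-count filter passed a test without it, on few counts. CDH9, a type II cadherin, had 0, 0 and 0 counts in DMSO, 3, 1 and 2 in tretinoin, 1, 5 and 3 in vemurafenib, and 3, 3 and 4 in the combination. CDH10 had 0, 2 and 0 counts in DMSO, 0, 2 and 0 in tretinoin, 5, 11 and 3 in vemurafenib, and 8, 10 and 3 in the combination. PCDH19, a delta-2 protocadherin, had 3, 1 and 1 counts in DMSO, 3, 2 and 2 in tretinoin, 8, 3 and 5 in vemurafenib, and 9, 12 and 9 in the combination, and its vemurafenib value was not called (log2 1.4, SE 0.8, edgeR adjusted p = 0.27). These 3 were the untested members that passed the adjusted p of 0.05 in an edgeR fit without the low-count filter (CDH9 and CDH10 with vemurafenib and with the combination, CDH10 also in the combination relative to tretinoin, PCDH19 with the combination), and they were singled out after their values were seen. CDH20 had 0 counts in all 12 libraries. PCDH20 had 1 count in all, with 201 of its 4778 exon bases free of another annotated gene, so its expression cannot be judged from these counts.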
